A study of Mus musculus with 12 samples.

Results

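The 9 genes described here, which encode RNA-binding proteins, were followed from the mouse oocyte to the 2-cell embryo: Igf2bp2 and Igf2bp3, Lin28a and Lin28b, Pum2, Fmr1 with its relatives Fxr1 and Fxr2, and the Musashi gene Msi2. They were taken by name as 9 of the 11298 genes of the expression table. Libraries were made by Smart-seq2, which copies RNA from its poly(A) tail with an oligo-dT primer, from C57BL/6 mice that were wild type (labelled Pabpn1l-WT, here WT) or carried a knockout (KO) of Pabpn1l, a poly(A)-binding protein gene of oocytes and early embryos. The 3 stages were the germinal vesicle (GV) oocyte, taken from the animal, and 1-cell and 2-cell embryos, cultured in KSOM medium. Each library pooled 10 oocytes or embryos, and each of the 6 groups of stage and genotype had 2 libraries, 12 in all. The labels give neither the knockout allele nor whether KO describes the mother, the embryo or both, and they do not say whether libraries came from separate animals, so p-values cover only library-to-library spread, which could be technical.

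IGF2BP proteins bind messenger RNAs and are known mainly for protecting them from decay and for placing them in the cytoplasm. LIN28 proteins bind let-7 microRNA precursors and keep them from maturing, and let-7 in turn targets Lin28 and Igf2bp messenger RNAs. Pumilio proteins such as PUM2 bind short UGUA-containing sites in 3′ untranslated regions (3′UTRs) and recruit deadenylation and repressor complexes, while FMRP (the product of Fmr1) and its paralogs FXR1 and FXR2 are polysome-associated regulators of translation. Musashi proteins control translation of maternal messages, best described in frog oocytes. Oocytes and early embryos run on stored maternal messages, which are largely cleared before and during activation of the embryonic genome, so proteins of this kind act where little new RNA is made.

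Values are FPKM, fragments per kilobase of transcript, scaled to the mapped fragments of the library, so levels can be compared between genes. No value of the table lay under 1 FPKM, and 1 FPKM is called the floor: a gene listed there was at or below it. The embryo columns had in addition been multiplied by 1 number for each library, between 0.116 and 0.552, while this factor was 1 in all 4 oocyte libraries. It was larger in KO 1-cell (0.432 and 0.552) than in WT 1-cell embryos (0.269 and 0.212), and what it was based on is not given in the sources used here. Each result is therefore given on the deposited scale and again on FPKM before the factor. Ratios of genes within a library are given where they bear on the result. The factor cannot move such a ratio when both genes are above the floor, but it can when 1 of them is at the floor. FPKM hold no read counts, so the depth is unknown.

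The labels were checked against the deleted gene first. Pabpn1l stood at 220 and 204 FPKM in the WT GV libraries and at 7.23 and 4.98 in the KO GV libraries. At the 1-cell stage it stood at 16.4 and 12.2 in WT libraries and at 2.57 and 4.55 in KO libraries. It was at or within 1 FPKM of the floor in all 4 2-cell libraries, so it cannot check those labels. The summed level of 9 oocyte markers was 9162 to 9987 FPKM in the 4 oocyte libraries. The summed levels of other marker lists stayed below those of the oocyte markers in every library. They reached up to 36.8 FPKM for 4 cumulus and granulosa markers, 28.4 for 2 sperm markers and 16.5 for 3 blood and immune markers. Fshr and Inha were at the floor in all embryo libraries and Lyz2 and Tyrobp in all oocyte and 1-cell libraries. Other members were above it in oocytes: Cyp19a1 averaged 24.6 FPKM in WT and 28.0 in KO, Prm2 17.7 and 22.6, and Pecam1 13.3 and 13.0. In 1-cell embryos Cyp19a1 averaged 5.79 FPKM in WT and 10.5 in KO. Limma called Fshr higher in KO oocytes (log2 fold change 0.656, adjusted p = 0.00208), though not under quantile normalization (adjusted p = 0.238). Inha was lower in KO oocytes without passing the test (-1.51, adjusted p = 0.0735). Libraries of a group correlated at 0.971 or more over genes, on log2(FPKM + 1).

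In WT GV oocytes the 9 genes spanned the range of the table. Fxr1 was highest, at 132.8 ± 6.61 FPKM (SD, n = 2), above 91.7% of all genes, followed by Igf2bp2 at 78.3 ± 6.93. Pum2 at 32.1 ± 3.20 and Igf2bp3 at 28.3 ± 2.38 came next and did not differ beyond their spread, with 29.9 and 34.4 FPKM against 30.0 and 26.6. Fxr2 followed at 13.0 ± 1.66. Lin28a (8.05 ± 0.407) and Fmr1 (6.43 ± 2.13) overlapped, with 7.76 and 8.33 FPKM against 4.92 and 7.93. Lin28b was low, at 3.01 ± 0.101 FPKM, and Msi2 was at the floor in 1 library and at 1.03 FPKM in the other. The order of neighbours was thus clear at the top of the range and not between Pum2 and Igf2bp3 or between Lin28a and Fmr1. By the 2-cell stage the order had changed: Pum2 (11.4 ± 3.13 FPKM in WT) stood first, Igf2bp3 (6.99 ± 0.205) and Fxr1 (6.23 ± 0.522) next, and Igf2bp2 was down at 1.65 ± 0.110. Fmr1 (1.31 and 2.42 FPKM) overlapped Fxr2 (2.41 and 2.23), Lin28a (1.65 and 2.18) and Igf2bp2 (1.57 and 1.73). Fxr2 lay above Lin28a and Igf2bp2 without overlap, while Lin28a and Igf2bp2 overlapped. In pooled samples fewer cells carrying an RNA and less RNA per cell cannot be told apart, and with oligo-dT priming neither can less RNA and a shorter tail.

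**Figure D1:**
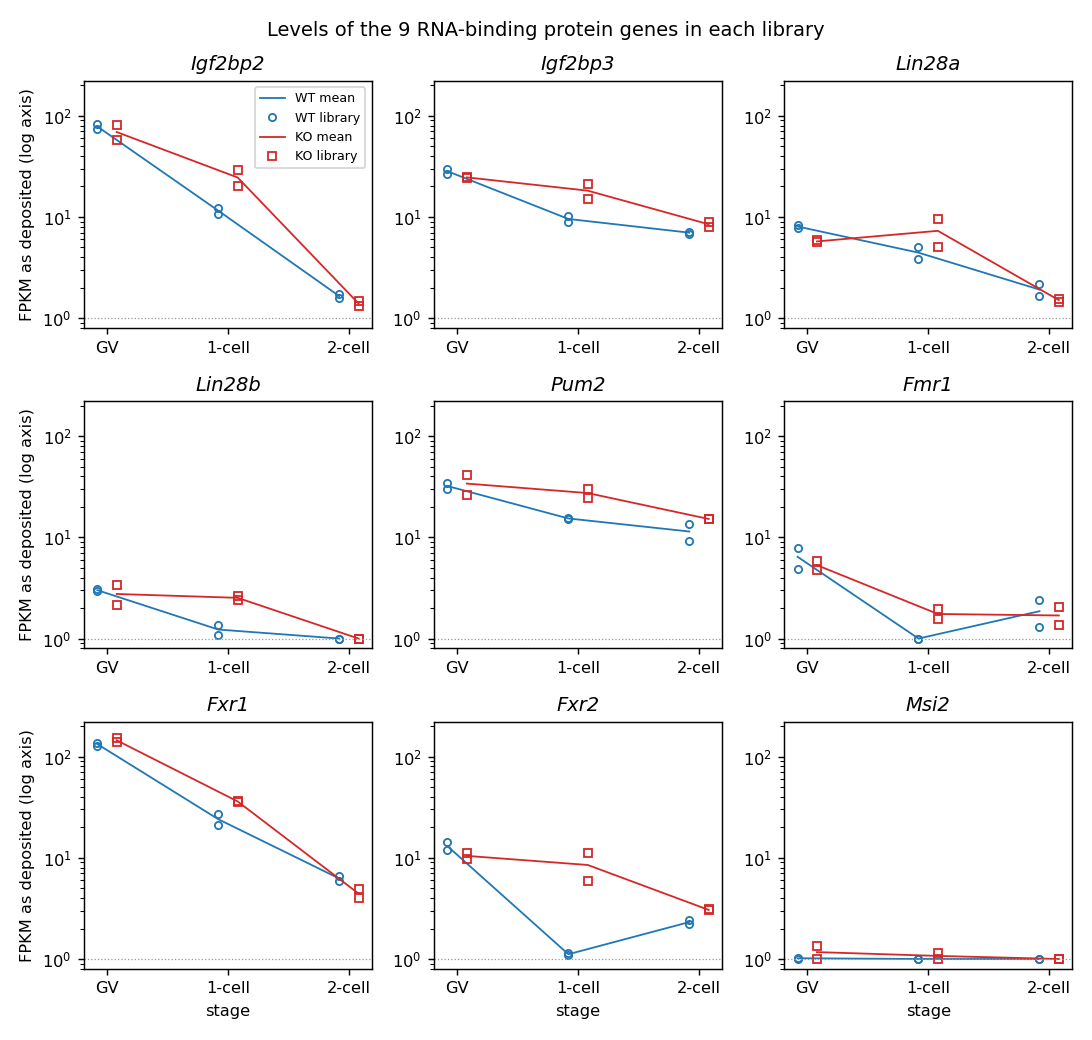
Deposited FPKM of each of the 9 genes in all 12 libraries (log axis; points are libraries and lines join the group means), by stage and genotype, with the floor at 1 FPKM. The 2 genotypes lie close together in oocytes; at the 1-cell stage KO libraries lie above WT libraries for every gene but Msi2, and at the 2-cell stage Lin28b and Msi2 are at the floor in all 4 libraries.

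Igf2bp2 fell steeply through the time course and Igf2bp3 did not follow it. Igf2bp2 was listed at 83.2 and 73.4 FPKM in WT GV, at 12.3 and 10.7 in WT 1-cell and at 1.57 and 1.73 in WT 2-cell libraries. Igf2bp3 was listed at 30.0 and 26.6, then 10.2 and 8.86, then 6.84 and 7.13 FPKM. The groups of consecutive stages did not overlap for either gene, but Igf2bp2 at the 2-cell stage kept 2.11% of its oocyte level and Igf2bp3 kept 24.7%. Before the factor the pair moved in opposite directions: WT Igf2bp2 averaged 78.3, 48.1 and 13.8 FPKM at the 3 stages, and WT Igf2bp3 28.3, 39.8 and 58.5. On that scale limma called Igf2bp2 lower at each WT step (log2 fold change -0.69 ± 0.15 (SE), adjusted p = 0.0139, then -1.73 ± 0.15, adjusted p = 0.000152) and Igf2bp3 higher at each (0.48 ± 0.08, adjusted p = 0.00296, then 0.54 ± 0.08, adjusted p = 0.00120). In KO samples before the factor Igf2bp3 averaged 24.6, 36.7 and 67.2 FPKM and rose at each step, while Igf2bp2 averaged 69.0, 49.5 and 11.1 and passed the test at the second step (-2.06 ± 0.15, adjusted p = 0.000189) but not at the first (-0.45 ± 0.15, adjusted p = 0.0855).

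The ratio of Igf2bp3 to Igf2bp2 within each library carries this switch without any scaling. It was 0.361 and 0.363 in WT GV oocytes, 0.829 and 0.828 in WT 1-cell and 4.35 and 4.13 in WT 2-cell embryos. In KO libraries it was 0.421 and 0.310, then 0.749 and 0.736, then 6.07 and 6.07. All 8 oocyte and 1-cell libraries had more Igf2bp2, all 4 2-cell libraries had more Igf2bp3, and the libraries of the 3 stages did not overlap in either genotype. Between genotypes, KO lay below WT at the 1-cell stage and above it at the 2-cell stage, with no overlap. An exact two-sided permutation test within stages gave p = 0.278 for the mean genotype difference over the 3 stages (log2 difference 0.12; adjusted p = 0.370 over the 4 ratios tested), and within 1 stage 2 libraries against 2 cannot go below p = 0.333.

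**Figure D2:**
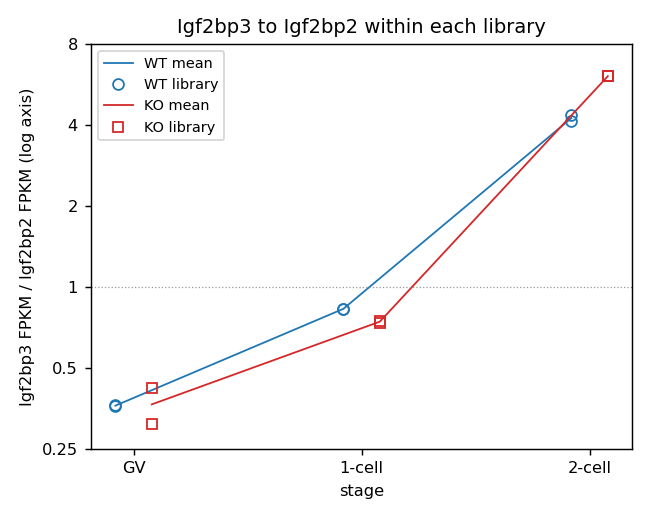
Ratio of Igf2bp3 to Igf2bp2 FPKM within each of the 12 libraries (log axis; points are libraries, lines join the group means), by stage and genotype. The ratio rises from 0.310 to 0.421 in oocytes to 4.13 to 6.07 in 2-cell embryos, crossing 1 between the 1-cell and 2-cell stages in both genotypes.

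Sequence sites for let-7 are shown because Lin28 and Igf2bp messages are textbook let-7 targets and these 4 genes hold sites that the other 5 do not. The mature let-7a microRNA is given 5′ to 3′ with its seed, bases 2 to 8, in capitals, from RefSeq (GRCm38.p6, minus strand of chr13:48538239-48538260):
mmu-let-7a-5p: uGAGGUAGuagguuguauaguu
The 3′UTRs of 1 annotated transcript for each gene (GENCODE M21, GRCm38) were searched on the transcribed strand for CTACCTC, the complement of that seed, capitalised here within the surrounding bases. Igf2bp2 (chromosome 16, minus strand) and Igf2bp3 (chromosome 6, minus strand) hold 1 match each, Lin28a (chromosome 4, minus strand) holds 2 and Lin28b (chromosome 10, minus strand) holds 4:
Igf2bp2 base 1313 of 1784: aataaaagCTACCTCaggtgttt
Igf2bp3 base 548 of 2119: ttactcaaCTACCTCaggtattc
Lin28a base 909 of 2775: ctgttgaaCTACCTCatttttgc
Lin28a base 1547 of 2775: ccacaaacCTACCTCactgtgtt
Lin28b base 36 of 4445: cgggaagtCTACCTCatgcaagc
Lin28b base 2410 of 4445: gttagtaaCTACCTCtgagtttg
Lin28b base 2582 of 4445: gcacatggCTACCTCccagctac
Lin28b base 3998 of 4445: ggcaccgaCTACCTCttcaatca
No match lay in the 3′UTRs of Pum2 (2861 bases), Fmr1 (2288), Fxr1 (255), Fxr2 (598) or Msi2 (803). Those of Fxr1, Fxr2 and Msi2 are shorter than any 3′UTR with a match listed here, so they offer fewer places for one. Among 2208 genes of the table whose 3′UTR is 1784 to 4445 bases long, 15.8% hold at least 1 match. At least 2 are held by 2.17% and at least 4 by 0.226% (5 genes). This range runs from the shortest to the longest 3′UTR of the 4 genes with a match, which are counted in it. Lin28b is 1 of the 5 genes and lies at the upper end, so its 4 matches stand beside 3′UTRs no longer than its own. Which isoforms these cells use was not measured, and a match is a description of the annotated letters. The microRNA itself was not measured. MicroRNA activity is known to be largely suppressed in mouse oocytes.

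Lin28a, the LIN28 gene with the higher level throughout, was listed at 7.76 and 8.33 FPKM in WT GV, 4.99 and 3.88 in WT 1-cell and 1.65 and 2.18 in WT 2-cell libraries. The KO libraries held 5.60 and 5.85, then 5.10 and 9.48, then 1.56 and 1.45 FPKM. WT groups fell without overlap on the deposited scale. Before the factor, WT Lin28a instead was higher at the 1-cell stage than in oocytes (18.4 ± 0.201 against 8.05 ± 0.407 FPKM, log2 fold change 1.01 ± 0.17, adjusted p = 0.00364). For that test both oocyte values were raised to 8.61 FPKM, the highest floor of all libraries. Lin28a did not pass the test in the next step (-0.20, adjusted p = 0.510). Of the 8 genes called lower from WT GV to 1-cell on the deposited scale, Lin28a had the change nearest to 0 (log2 fold change -0.74 ± 0.24, adjusted p = 0.0155; no longer called without WT GV replicate 1, adjusted p = 0.0533, WT GV replicate 2, 0.0793, or WT 1-cell replicate 2, 0.0979), beside a median of -1.91 over all genes above the floor. In KO oocytes both libraries were below both WT libraries, by a log2 fold change of -0.43 ± 0.24 that did not pass the test (adjusted p = 0.787).

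Lin28b, its paralog, was listed at 2.94 and 3.08 FPKM in WT GV and 2.14 and 3.37 in KO GV oocytes. In 1-cell embryos it was at 1.37 and 1.08 (WT) and 2.41 and 2.65 FPKM (KO), and at the floor in all 4 2-cell libraries. Before the factor the 1-cell values were 5.10 and 5.09 FPKM for WT and 5.57 and 4.80 for KO, overlapping and just above the highest 1-cell floor of 4.71 (log2 fold change 0.017 ± 0.13, adjusted p = 1). The ratio of Lin28a to Lin28b was 2.64 and 2.71 in WT and 2.61 and 1.74 in KO oocytes. In 1-cell embryos it was 3.63 and 3.58 for WT against 2.12 and 3.58 for KO. Every KO library of these 2 stages lay below both WT libraries, in 1-cell embryos by less than the printed digits for KO replicate 2. Over the 2 stages the mean log2 difference was -0.36 (exact two-sided permutation p = 0.0556, the smallest that 36 arrangements allow), a test added after the values were seen. At the 2-cell stage Lin28b was at the floor, so the listed ratio is only the level of Lin28a. With that stage included, the planned test over 3 stages gave -0.35 (exact permutation p = 0.00926, adjusted p = 0.0370 over 4 ratios), and because Lin28b has no measured value there, no difference is read from it. That call also ended with 1 FPKM added to both genes (-0.21, exact p = 0.157) and, at an exact p of 0.0926, without either WT GV, either WT 1-cell or either KO 2-cell library.

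Of the genes above 5 FPKM in oocytes, Pum2 kept the largest share of its deposited level to the 2-cell stage, 35.5% in WT and 44.7% in KO. The WT libraries held 29.9 and 34.4 FPKM in GV, 15.7 and 15.1 in 1-cell and 9.20 and 13.6 in 2-cell samples. The KO libraries held 26.5 and 41.5, then 24.6 and 30.1, then 15.1 and 15.3. Before the factor Pum2 rose from oocytes to WT 1-cell embryos (32.1 ± 3.20 to 64.5 ± 9.05 FPKM; log2 fold change 0.98 ± 0.24, adjusted p = 0.0196) and from KO 1-cell to KO 2-cell embryos (55.8 ± 1.70 to 121 ± 7.32; 1.10 ± 0.24, adjusted p = 0.0142), while the WT step to 2-cell (0.54, adjusted p = 0.144) and the KO step to 1-cell (0.73, adjusted p = 0.0731) did not pass. Its place in the table climbed from above 73.8% of genes in WT oocytes to above 88.8% and 92.3% in 1-cell and 2-cell embryos.

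Pum2's own annotated 3′UTR (chromosome 12, plus strand, 2861 bases) holds 2 copies of the Pumilio site TGTANATA, shown because the protein binds this motif, which makes Pum2 a gene that carries the site of its own product:
Pum2 base 445: tatagagaTGTATATAgaattata
Pum2 base 698: tacagaatTGTATATActtataat
Lin28b and Fmr1 also hold 2 copies, Igf2bp2, Lin28a and Msi2 hold 1 each, and Igf2bp3, Fxr1 and Fxr2 hold 0. The share of all genes with a site anywhere in the 3′UTR was not counted. Whether these counts are high or low for 3′UTRs of such lengths is therefore not read. Both Pum2 sites, 2417 and 2164 bases from the end, lie outside the window counted next. Within the last 300 bases, 0 of the 8 genes with a 3′UTR that long hold one, beside 10.7% of 7527 genes of the table. The cytoplasmic polyadenylation element, searched as TTTTAT or TTTTAAT, lies in that window in 38.7% of those 7527 genes and in 2 of the 8 (Lin28a and Fmr1), shown because this element governs tail lengthening of stored messages:
Lin28a 140 bases from the end: ctggggtgTTTTATttcctagt
Fmr1 35 bases from the end: atgtaaatTTTTATtaaaaagt
All searches covered the transcribed strand alone, and Fxr1, with 255 bases of annotated 3′UTR, was outside this count. Igf2bp2 and Msi2 hold no polyadenylation signal (AATAAA or ATTAAA) in the last 300 bases, where 86.7% of those 7527 genes hold one. Igf2bp2 holds the element 392 and 384 bases from its annotated end, beside an AATAAA at 380, outside the window counted. Which 3′ ends these cells use was not measured.

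The 3 genes of the fragile X family took different courses. Fxr1, the most abundant of the 9 genes in oocytes, was listed at 137 and 128 FPKM in WT GV, 27.0 and 21.1 in WT 1-cell and 5.86 and 6.60 in WT 2-cell libraries. In KO it was listed at 152 and 138, then 35.5 and 36.5, then 3.98 and 4.87 FPKM. Fxr1 fell at both steps without overlap (under quantile normalization the first WT step turned to 0.20), and at the 2-cell stage it kept 4.69% of its WT oocyte level and 3.06% of its KO oocyte level. Before the factor it also fell, in WT from 132.8 to 99.7 and 52.1 FPKM and in KO from 144.7 to 74.2 and 35.4; the second WT step (log2 fold change -0.92, adjusted p = 0.00224) and both KO steps (-0.96, adjusted p = 0.00331, and -1.05, adjusted p = 0.00219) passed the test and the first WT step did not (-0.41, adjusted p = 0.0827).

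Fmr1, the gene silenced in fragile X syndrome, was low. It was listed at 4.92 and 7.93 FPKM in WT GV and 5.83 and 4.80 in KO GV oocytes, at the floor in both WT 1-cell libraries, at 1.55 and 1.95 in KO 1-cell, at 1.31 and 2.42 in WT 2-cell and at 2.03 and 1.35 in KO 2-cell embryos. Genotypes overlapped at GV and 2-cell. At the 1-cell stage both KO values exceed a WT group that is at the floor, but before the factor the KO values (3.58 and 3.54 FPKM) lie below the highest 1-cell floor of 4.71, so no difference could be seen on that scale. The 1-cell difference did not pass the test (log2 fold change 0.46 ± 0.24, adjusted p = 0.155).

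Fxr2 was the gene of the 9 with the widest gap between genotypes. It was listed at 14.2 and 11.9 FPKM in WT GV and 9.80 and 11.1 in KO GV oocytes, at 1.09 and 1.14 in WT 1-cell against 5.91 and 11.1 in KO 1-cell embryos, and at 2.41 and 2.23 in WT 2-cell against 3.02 and 3.09 in KO 2-cell embryos. The WT 1-cell libraries stand alone just above the floor, and the KO libraries kept 81.3% of the KO oocyte level, against 8.54% in WT. The log2 fold change at the 1-cell stage was 2.11 ± 0.24 (adjusted p = 0.000225), a 7.62-fold ratio of mean FPKM, and Fxr2 ranked 318 of 11298 genes from the highest. Before the factor the WT values were 4.03 and 5.38 FPKM and the KO values 13.7 and 20.1; the log2 fold change was 1.54 ± 0.19 (adjusted p = 0.00158), rank 220, with 1 WT library under the highest floor of the stage. In oocytes both KO values were below both WT values (-0.29 ± 0.24, adjusted p = 1), and at the 2-cell stage both were above (0.29 ± 0.24, adjusted p = 0.618). Within libraries the 1-cell ratio of Fxr2 to Fmr1 was 1.09 and 1.14 for WT, where Fmr1 is at the floor, against 3.81 and 5.67 for KO. The WT ratios are therefore only the deposited level of Fxr2, which the factor moves, and the test over 3 stages includes them. Over the 3 stages the mean log2 difference of 0.83 did not pass the exact permutation test (p = 0.111, adjusted p = 0.222), and without WT GV replicate 1 the exact p was 0.0463 (difference 0.99). The ratio of Fxr1 to Fmr1 gave -0.08 (exact permutation p = 0.769, adjusted p = 0.769), with the same WT floor values of Fmr1.

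Msi2 was at the floor in 9 of 12 libraries, and its highest value was 1.34 FPKM, in a KO GV library. At this level no difference between groups was detectable with all libraries; without KO GV replicate 1 the single remaining KO oocyte library, at 1.34 FPKM and assumed to vary like the other groups, passed limma's test against WT (0.21, adjusted p = 0.0184). Igf2bp1 and Msi1 were not analysed here.

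Across the 9 genes, KO and WT oocytes were not told apart by the test. Limma called 0 of 9, with 0 at an unadjusted p under 0.05, beside 1.62% of all genes called in either direction; before the factor 0 were called, beside 2.57% of all genes, and 1 had an unadjusted p under 0.05. The 9 log2 fold changes lay between -0.43 (Lin28a) and 0.12 (Fxr1), with a median of -0.19 beside -0.02 over all genes. Quantile normalization also gave 0 calls among the 9, beside 1 gene higher and 1 lower of all 11298.

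At the 1-cell stage KO embryos had more RNA of most of these genes on the deposited scale, as they had of most genes. The 6 genes called higher were Fxr2, Igf2bp2 (log2 fold change 1.01 ± 0.21, adjusted p = 0.00418), Igf2bp3 (0.85 ± 0.17, adjusted p = 0.00377), Pum2 (0.79 ± 0.24, adjusted p = 0.0214), Lin28b (0.66 ± 0.14, adjusted p = 0.00422) and Fxr1 (0.57 ± 0.16, adjusted p = 0.0155), and 0 were called lower. Before the factor the sign turned for Igf2bp3, Pum2, Fxr1 and Lin28a, and under quantile normalization also for Igf2bp2 and Lin28b. The deposited count stands beside 52.7% of all genes called higher and 0.0974% called lower, and the median gene above the floor was higher by 0.89. Against that shift Fxr2 remained 1.22 higher and Igf2bp2 0.12 higher, while Igf2bp3 (-0.04), Pum2 (-0.10), Lin28b (-0.23) and Fxr1 (-0.32) were below it. Lin28a (0.56 ± 0.24, adjusted p = 0.0772) did not pass, with KO libraries of 5.10 and 9.48 FPKM; without the first of these it passed (0.95, adjusted p = 0.00253). Pum2 no longer passed without WT 1-cell replicate 1 (0.81, adjusted p = 0.0627), WT 1-cell replicate 2 (0.76, adjusted p = 0.0950) or KO 1-cell replicate 2 (0.65, adjusted p = 0.130), nor Fxr1 without WT 1-cell replicate 2 (0.40, adjusted p = 0.108) or KO 1-cell replicate 2 (0.56, adjusted p = 0.0632). Before the factor Fxr2 was the only one of the 9 called at this stage, beside 7.36% of all genes called higher and 2.26% called lower. Under quantile normalization Fxr2 was called higher (1.08, adjusted p = 0.00333) and Fxr1 lower (-0.64, adjusted p = 0.0160). The 9 oocyte markers moved with these genes: their summed level was 4915 to 5498 FPKM in KO and 1709 to 2330 in WT 1-cell embryos, and all 9 were called higher (4 before the factor). Their part in the result was not tested.

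**Figure D3:**
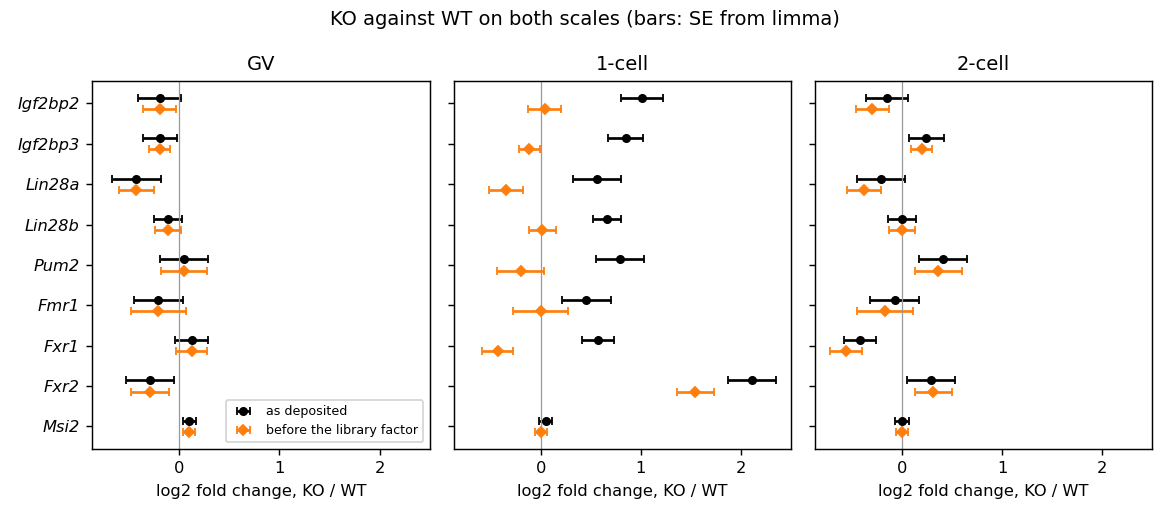
Log2 fold change of KO against WT for each of the 9 genes at the 3 stages, on the deposited scale and before the factor (points are limma estimates, bars are ± 1 SE, the grey line is 0). At the 1-cell stage the deposited values other than Fxr2 lie between 0.050 and 1.01 and the values before the factor between -0.43 and 0.040, and Fxr2 stands to the right of the others on both scales, at 2.11 and 1.54.

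At the 2-cell stage 0 of the 9 genes were called between genotypes on the deposited scale, beside 19.6% of all genes called in either direction, and 1 (Fxr1) had an unadjusted p under 0.05. Fxr1 was lower in both KO libraries, by -0.42 ± 0.16 (adjusted p = 0.119), and before the factor the same difference was called (-0.56 ± 0.16, adjusted p = 0.0279; 17.8% of all genes were called lower on that scale). Pum2 (9.20 and 13.6 in WT, 15.1 and 15.3 FPKM in KO) and Igf2bp3 (6.84 and 7.13, against 8.88 and 8.03) were higher in both KO libraries without passing the test (0.41, adjusted p = 0.359, and 0.24, adjusted p = 0.513). Quantile normalization called Igf2bp3 (0.31, adjusted p = 0.0482) and Fxr2 (0.66, adjusted p = 0.0116) higher, beside 2705 of 11298 genes higher and 2169 lower. The oocyte markers summed to 1111 to 1215 FPKM in KO and 424 to 427 in WT 2-cell embryos. Of the 3 blood and immune markers, Lyz2 (2.52 ± 0.265 FPKM, adjusted p = 1.04e-05) and Tyrobp (1.61 ± 0.375, adjusted p = 0.00790) were called higher in KO 2-cell embryos, against WT libraries at the floor. The part of either marker list in these values was not tested.

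Counted over the stage steps on the deposited scale, WT embryos at the 1-cell stage were lower than WT oocytes for 8 of the 9 genes (all but Msi2), beside 85.8% of all genes called lower. From WT 1-cell to WT 2-cell, 3 were called lower (Igf2bp2, Lin28a and Fxr1), beside 29% of genes. Lin28a was not called in that step without WT 1-cell replicate 1 (adjusted p = 0.108) or WT 2-cell replicate 1 (adjusted p = 0.116). In KO, 3 were called lower from oocyte to 1-cell (Igf2bp2, Fmr1 and Fxr1), beside 66.9% of genes, and 7 from 1-cell to 2-cell (all but Fmr1 and Msi2), beside 60.7%. The KO count to the 1-cell stage was 5 without KO GV replicate 1 or KO 1-cell replicate 2, and Pum2 was not called from KO 1-cell to 2-cell without KO 1-cell replicate 2 (adjusted p = 0.0963), KO 2-cell replicate 1 (0.0632) or KO 2-cell replicate 2 (0.0590). None was called higher in any of the 4 steps, beside 0.0354%, 9.45%, 0.23% and 0.646% of all genes. Before the factor the same 4 steps gave 3 higher and 1 lower, 2 and 2, 2 and 1, and 2 and 2, beside 8.67% higher and 21.1% lower, 21% and 14.9%, 6.83% and 16.1%, and 9.91% and 15.4% of all genes. Values under 8.61 FPKM were raised to it in every library for these steps. That fixed the log2 fold changes of Lin28b and Msi2 at 0 in every step, and of Fmr1 in the steps to the 1-cell stage. Igf2bp3 was among those called higher in all 4 steps on that scale and Fxr2 in the WT step to 2-cell (1.09 ± 0.19, adjusted p = 0.00332). KO Lin28a was higher at the 1-cell stage than in oocytes (0.67 ± 0.17, adjusted p = 0.0275). The KO oocyte values of Lin28a and the WT 1-cell values of Fxr2 in these tests were among those raised to 8.61 FPKM. The difference between genotypes itself changed from oocytes to 1-cell embryos for 5 of the 9 genes on the deposited scale, each toward higher in KO, beside 38.7% of all genes. That count was 1 without WT 1-cell replicate 2 and 3 without WT GV replicate 1, WT GV replicate 2 or KO 1-cell replicate 2. From the 1-cell to the 2-cell stage it changed for 4 of the 9, each toward lower in KO, beside 35.7%, and this count was 2 without WT 1-cell replicate 2, WT 2-cell replicate 2 or KO 2-cell replicate 2. Before the factor neither term was called for any of the 9 genes, beside 2.74% and 21.7% of all genes called in either direction. With values raised to 8.61 FPKM, Lin28b and Msi2 could not be called in either term and Fmr1 could not in the first. Both WT 1-cell values of Fxr2 (4.03 and 5.38 FPKM) were raised as well, so no absence of change is read from these terms.

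**Figure D4:**
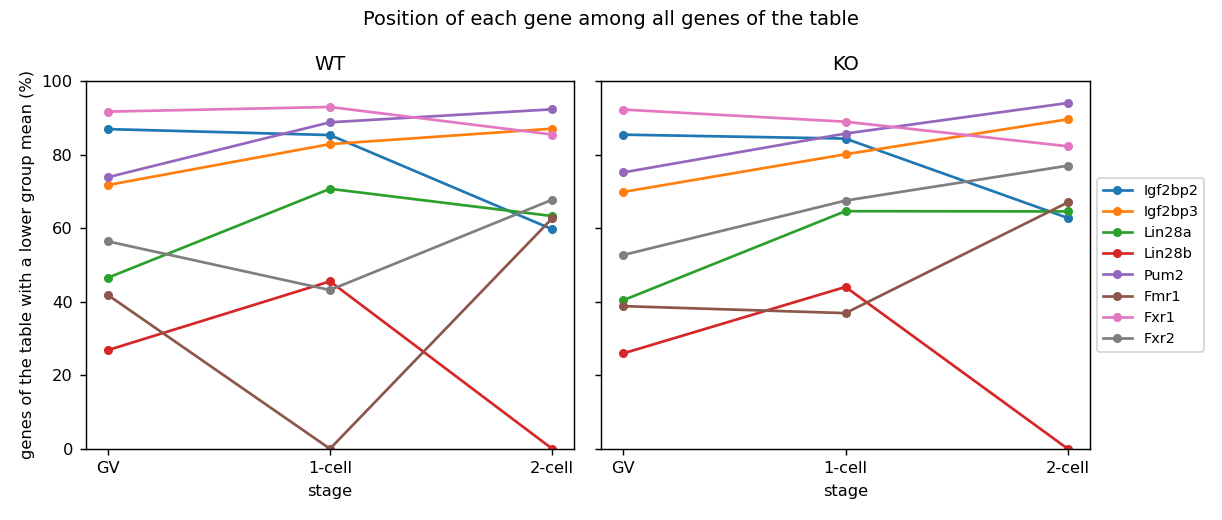
Percent of the 11298 genes with a lower group mean than each gene (Msi2 left out), by stage, in WT (left) and KO (right). Igf2bp2 drops from 86.9% to 59.7% in WT while Igf2bp3 climbs from 71.7% to 87.0% and Pum2 from 73.8% to 92.3%; genes at the floor are drawn at 0, and Fxr2 at the 1-cell stage stands at 43.2% in WT and 67.5% in KO.

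Partners and targets of these families were read from lists chosen by known function. Of 19 measured genes of the LIN28 and let-7 pathway, 10 were called higher in KO 1-cell embryos and 0 lower (1 and 0 before the factor), and the same counts were 11 of 14 and 0 for FMRP and FXR partners (0 and 1 before), 7 of 8 and 0 for Pumilio partners (1 and 0 before), 7 of 10 and 0 for IGF2BP partners (0 and 0 before) and 3 of 4 and 0 for Musashi partners (1 and 0 before), all beside 52.7% of genes. That share is for the deposited scale, and the counts before the factor stand beside 7.36% of all genes called higher and 2.26% lower. The median log2 fold changes of the 5 lists on the deposited scale were 0.57, 0.78, 1.01, 0.87 and 0.63, beside 0.57 over all genes. The highest members of 3 lists stayed called before the factor. Tarbp2, a Dicer partner, stood at 11.4 ± 5.05 FPKM in KO against 1.86 ± 0.169 in WT (2.06 ± 0.26, adjusted p = 0.000448). Cdkn1b, the cell cycle inhibitor p27 and a known Pumilio target, stood at 14.5 ± 0.559 against 1.44 ± 0.266 (2.67 ± 0.15, adjusted p = 1.11e-05), and Mos, the oocyte kinase whose message Musashi controls in frogs, at 37.2 ± 9.08 against 3.82 ± 0.951 (2.98 ± 0.20, adjusted p = 2.20e-05). Atxn2 (1.37) and Hnrnpu (1.20), highest of the FMRP and IGF2BP lists, were called on the deposited scale alone.

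At the 2-cell stage the lists together held calls in both directions. The LIN28 and let-7 list had 1 of 19 genes called higher and 0 lower. The FMRP and FXR list had 1 higher and 2 lower of 14, and the Pumilio list 2 and 1 of 8. The IGF2BP list had 1 and 3 of 10 and the Musashi list 0 and 2 of 4. Over all genes 7.56% were called higher and 12% lower. The lists are small, and no difference from these shares is read. Dazl, a germ-cell RNA-binding protein that works with Pumilio, was higher in KO (66.4 ± 16.3 against 9.12 ± 0.626 FPKM; 2.72 ± 0.23, adjusted p = 5.27e-05). Matr3, a nuclear RNA-binding protein, was higher (10.0 ± 1.78 against 2.96 ± 0.529; 1.48 ± 0.22, adjusted p = 0.00133), and so was Ranbp9 (0.83 ± 0.25, adjusted p = 0.0474). G3bp1, a stress granule core protein, was at the floor in both KO libraries and at 7.53 ± 0.494 FPKM in WT (adjusted p = 0.00168), and Cdkn1a, the inhibitor p21, at the floor in KO and at 3.59 ± 0.860 in WT (adjusted p = 5.51e-05). Pabpc1, the main cytoplasmic poly(A)-binding protein, was lower (2.27 ± 0.903 against 10.0 ± 2.74; -1.76 ± 0.26, adjusted p = 0.00132), as was the kinase gene Mapk14 (1.47 ± 0.0376 against 4.76 ± 0.343; -1.22 ± 0.15, adjusted p = 0.000469). All 7 kept their call before the factor. Dazl and Mos are also on the list of oocyte markers. In oocytes Prkra and Pura were the 2 genes of these lists called, both at the floor in KO and at 1.62 and 1.57 FPKM in WT, and neither was called under quantile normalization.

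The genes with the most similar course over the 12 libraries, by Pearson correlation of log2(FPKM + 1) among 8262 genes above the floor in at least 6 libraries, were Cobll1 for Igf2bp2 (r = 0.999), Srbd1 for Igf2bp3 (0.996), Ccdc109a for Lin28a (0.979), Pdzd2 for Lin28b (0.989), Wdr26 for Pum2 (0.993), 1700010D01Rik for Fmr1 (0.980), Cuta for Fxr1 (0.999) and Ppdpf for Fxr2 (0.992). These values describe libraries that share the stage fall and the library factor.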

How the data were processed

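The submitters' processing notes name build mm9 and the tools Cufflinks (2.2.1) and TopHat2 (2.1.1); their roles are not given in the sources used here. The authors deposited 1 table of FPKM, 12 columns, 11298 complete entries; 1 incomplete last entry was left out, and the table, in alphabetical order, ends at Zc3h14. The floor of 1 FPKM and the embryo factors are in the deposited values: within a tolerance of 0.01 of the last of 6 digits, 100% of the values above the floor became whole on division by the factor. Before the factor, values were floored at the highest floor of the stage (KO against WT) or of all libraries (8.61 FPKM, other contrasts).

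Limma 3.58.1 (R 4.3.3) was fitted to log2(FPKM + 1) of all genes and libraries with an intensity trend; calls required an adjusted p below 0.05 (Benjamini-Hochberg over all genes of a contrast, two-sided). This scale understates changes of low genes. Ratios were tested in Python 3.11.15 by permuting genotype within stages. Values after ± are SD beside FPKM and SE beside log2 fold changes. The code was tested on simulated data. All 9 members were described, with Pabpn1l, the highest and the lowest called gene of each partner list in each genotype contrast, and for each member the most similar gene; some genes that this rule names are not reported here. The members and lists were chosen with earlier results of these data known. Alternatives were another pseudocount, a mean of at least 5 FPKM, no trend, quantile normalization, FPKM before the factor, a replicate block and leaving out each library.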

Additional observations from a re-analysis of the deposited data

Results flagged for a closer look

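The genotype difference changed between stages for 9 combinations of gene and stage pair on the deposited scale, by limma's interaction terms. From GV oocytes to 1-cell embryos the log2 difference between KO and WT grew by 1.21 for Igf2bp2 (adjusted p = 0.0156), 1.04 for Igf2bp3 (adjusted p = 0.0131), 0.99 for Lin28a (adjusted p = 0.0452), 0.78 for Lin28b (adjusted p = 0.0170) and 2.40 for Fxr2 (adjusted p = 0.00182), beside 38.7% of all genes called in that direction. From the 1-cell to the 2-cell stage it changed by -1.16 for Igf2bp2 (adjusted p = 0.0165), -0.66 for Lin28b (adjusted p = 0.0286), -0.99 for Fxr1 (adjusted p = 0.0101) and -1.82 for Fxr2 (adjusted p = 0.00348), beside 35.7% of all genes. Lin28a in the first term was not called in 7 of the 8 settings that left out 1 oocyte or 1-cell library, Lin28b in the second in 6 of 8 of the corresponding settings. Fxr2 in both terms and Fxr1 in the second kept their calls without any 1 library. Both sets share the 1-cell libraries, and the library factor differs between genotypes at that stage. Before the factor 0 of the 9 genes passed in either term, with 2 and 1 at an unadjusted p under 0.05. Fxr2 then stood at 1.16 (adjusted p = 0.0818) and -0.56 (adjusted p = 0.218). In both terms values under 8.61 FPKM were raised to it, among them both WT 1-cell values of Fxr2 (4.03 and 5.38 FPKM). Lin28b and Msi2 lay at or under it in every library and could not be called.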

How the results depend on the processing

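Of 81 log2 fold changes (9 genes in 9 contrasts), 21 changed sign before the factor and 41 under quantile normalization, many of them near 0. No pseudocount and no intensity trend reversed 0, and so did a mean of at least 5 FPKM, which does not test Lin28a, Lin28b, Fmr1 or Msi2. The setting before the factor divides by it and also raises low values to a common floor. In the oocyte to 1-cell interaction all oocyte values of Lin28a, at most 8.33 FPKM, were raised to 8.61. The part of each change in these reversals was not tested, nor was the cause of the quantile changes. Before the factor, members called higher went from 6 to 1 between genotypes at the 1-cell stage, lower from 0 to 1 at the 2-cell stage, higher from 0 to 3 and lower from 8 to 1 from WT oocytes to 1-cell, higher from 0 to 2 from WT 1-cell to 2-cell, higher from 0 to 2 and lower from 3 to 1 from KO oocytes to 1-cell, higher from 0 to 2 and lower from 7 to 2 from KO 1-cell to 2-cell, and from 5 and 4 to 0 in the interactions. Between genotypes at the 1-cell stage the reversed log2 fold changes were -0.11 for Igf2bp3, -0.35 for Lin28a, -0.20 for Pum2 and -0.43 for Fxr1. From WT oocytes to 1-cell the reversed log2 fold changes were 0.48 for Igf2bp3, 1.01 for Lin28a and 0.98 for Pum2. From WT 1-cell to 2-cell the reversed log2 fold changes were 0.54 for Igf2bp3 and 0.54 for Pum2. From KO oocytes to 1-cell the reversed log2 fold changes were 0.56 for Igf2bp3, 0.73 for Pum2 and 0.62 for Fxr2. From KO 1-cell to 2-cell the reversed log2 fold changes were 0.86 for Igf2bp3, 1.10 for Pum2, 0.56 for Fmr1 and 0.53 for Fxr2. In the oocyte to 1-cell interaction the reversed log2 fold changes were -0.35 for Lin28a, -0.25 for Pum2 and -0.55 for Fxr1. In the 1-cell to 2-cell interaction the reversed log2 fold changes were 0.31 for Igf2bp3 and 0.56 for Pum2.

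Quantile normalization gave 1 higher and 1 lower between genotypes at the 1-cell stage and 2 higher at the 2-cell stage. It gave 4 higher and 1 lower from WT oocytes to 1-cell, and 3 higher and 4 lower from WT 1-cell to 2-cell. In KO it gave 5 higher and 1 lower from oocytes to 1-cell, and 4 higher and 3 lower from 1-cell to 2-cell. Each interaction had 1 higher and 0 lower. Over all 11298 genes, 1445 were called higher and 1856 lower between genotypes at the 1-cell stage, and 2705 and 2169 at the 2-cell stage. From oocytes to 1-cell the counts were 3775 and 2690 in WT and 2610 and 2250 in KO. From 1-cell to 2-cell they were 2255 and 2972 in WT and 4094 and 3123 in KO. In the interactions they were 656 and 323, then 3550 and 2211. Between genotypes at the 1-cell stage the reversed log2 fold changes were -0.11 for Igf2bp2, -0.24 for Igf2bp3, -0.40 for Lin28a, -0.061 for Lin28b, -0.34 for Pum2 and -0.64 for Fxr1. Between genotypes at the 2-cell stage the reversed log2 fold changes were 0.20 for Igf2bp2, 0.10 for Lin28a and 0.29 for Fmr1. From WT oocytes to 1-cell the reversed log2 fold changes were 0.89 for Igf2bp3, 1.24 for Lin28a, 0.55 for Lin28b, 1.39 for Pum2, 0.20 for Fxr1 and 0.22 for Msi2. From WT 1-cell to 2-cell the reversed log2 fold changes were 0.45 for Igf2bp3 and 0.53 for Pum2. From KO oocytes to 1-cell the reversed log2 fold changes were 0.78 for Igf2bp3, 0.51 for Lin28b, 0.95 for Pum2, 0.74 for Fxr2 and 0.22 for Msi2. From KO 1-cell to 2-cell the reversed log2 fold changes were 1.00 for Igf2bp3, 0.049 for Lin28a, 1.23 for Pum2, 1.31 for Fmr1, 0.72 for Fxr2 and 0.10 for Msi2. In the oocyte to 1-cell interaction the reversed log2 fold changes were -0.11 for Igf2bp3, -0.19 for Lin28a, -0.044 for Lin28b, -0.44 for Pum2, -0.73 for Fxr1 and 0.0025 for Msi2. In the 1-cell to 2-cell interaction the reversed log2 fold changes were 0.31 for Igf2bp2, 0.55 for Igf2bp3, 0.51 for Lin28a, 0.16 for Lin28b, 0.70 for Pum2, 0.32 for Fxr1 and 0.055 for Msi2.

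A mean of at least 5 FPKM left Lin28a, Lin28b, Fmr1 and Msi2 untested, and no call of the other members was lost. With those genes untested, 5 of the 8 calls lower from WT oocytes to 1-cell remained. In the oocyte to 1-cell interaction 3 of 5 remained. The setting gave 1 gene higher from WT 1-cell to 2-cell, as did no pseudocount. Adding 1 FPKM moved the ratio of Fxr1 to Fmr1 to 0.035 and that of Lin28a to Lin28b to -0.21, and without the 2-cell stage, a setting chosen after seeing the data, the latter was -0.36 (exact p = 0.0556). Without 1 library at a time the mean log2 ratio difference was -0.48 to -0.22 for Lin28a to Lin28b, -0.23 to 0.069 for Fxr1 to Fmr1 and 0.66 to 1.00 for Fxr2 to Fmr1. Member counts then ranged from 0 to 1 higher between genotypes in oocytes, 0 to 1 higher and 3 to 5 lower from KO oocytes to 1-cell, 1 to 5 higher and 0 to 1 lower in the oocyte to 1-cell interaction and 2 to 6 lower in the 1-cell to 2-cell interaction. Ranges of the log2 fold changes that changed sign were, between genotypes in oocytes -0.44 to 0.044 for Igf2bp2, -0.35 to 0.13 for Lin28b, -0.27 to 0.36 for Pum2, -0.51 to 0.088 for Fmr1 and -0.012 to 0.21 for Msi2; between genotypes at the 2-cell stage -0.36 to 0.21 for Fmr1; from KO oocytes to 1-cell -0.14 to 0.64 for Lin28a, -0.31 to 0.17 for Lin28b, -0.59 to 0.039 for Pum2, -0.73 to 0.080 for Fxr2 and -0.18 to 0.050 for Msi2; from KO 1-cell to 2-cell -0.22 to 0.14 for Fmr1; in the oocyte to 1-cell interaction -0.16 to 0.062 for Msi2.

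The replicate number as a block changed 1 call of the members, Lin28a in the oocyte to 1-cell interaction (0.99, adjusted p = 0.0546), and over all genes moved the 1-cell genotype calls from 5950 to 5750 higher. Same-numbered libraries did not deviate together (r from -0.40 to 0.17 over 15 pairs of groups, 5 above 0.1), 1 of 6 groups correlated best with its own number, and the numbers were not taken as pairs. The floor limits Lin28b, Fmr1 and Msi2 in embryos, and groups of 2 limit every test.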
